A study of Mus musculus with 7 samples.

Results

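The genes of apoptosis and of the p53 pathway were examined in 3 control and 4 Wnt4βKO samples of mouse pancreatic islets. The set held 38 genes, chosen by gene name from known roles, not by a threshold on these arrays: 22 that promote apoptosis, 8 that restrain it, 6 of the p53 pathway and 2 inflammatory caspases. These genes were chosen with earlier results of these data known. They are 38 of the 22911 genes that a probe of the array named, and each was represented by its probe with the brightest mean over the 7 arrays. Controls were Pdx1CreER Tg-; Wnt4 fl/fl males and Wnt4βKO mice were Pdx1CreER Tg+; Wnt4 fl/fl males, so both groups carried the floxed Wnt4 alleles, both were gavaged with 2 doses of tamoxifen (50 mg/mL in oil) at 4 to 5 weeks of age, and islets were taken at 7 weeks. Cre was driven by a Pdx1 promoter, active in β-cells and also in some δ-cells, and was present in the Wnt4βKO group alone. Islets were picked by hand after collagenase digestion and a density gradient, and 50 ng of their RNA was labelled with Cy3 for a 1-colour Agilent array. Values are log2 intensities after background correction and quantile normalisation, and a change is the Wnt4βKO mean minus the control mean on that scale.

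Apoptosis can start at the mitochondrion or at the cell surface. At the mitochondrion, BH3-only proteins sense damage and either block the BCL2 guard proteins or activate the effectors BAX and BAK, which open the outer membrane and let cytochrome c reach APAF1 and the initiator caspase. At the surface, death receptors recruit FADD and another initiator caspase, and FLIP and the inhibitor of apoptosis proteins hold both routes in check. p53 is a transcription factor that DNA damage and other stress stabilise, and it raises its own antagonist Mdm2, the cell cycle inhibitor Cdkn1a and several BH3-only and effector genes. In β-cells these routes are studied because cytokines, lipids and endoplasmic reticulum stress kill β-cells through them.

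The letters of p53 binding sites near the starts of these genes are shown because p53 and its targets make up a group of their own here. The p53 response element is a decamer that usually stands in pairs, and its degenerate pattern reads alike on both strands, so 1 search covered both and no other motif was searched. In the RefSeq promoter sequences of GRCm38.p6, the 250 bases before each transcription start were searched. Of 27025 genes, 8.20% held the decamer and 0.0666% held a pair at most 13 bases apart. Of the 38 genes 34 had such a sequence (Bik, Pmaip1, Tnfrsf10b and Zmat3 did not), and 6 of the 34 (17.6%) held the decamer: Bax, Bmf, Ccng1, Cdkn1a, Mdm2 and Trp53. Sesn2 held none in this window. Cdkn1a held 2, which are separated by 12 bases. Each match is printed with 20 bases to either side, from 5′ to 3′ on the gene's strand, with the decamer in capitals.
Bax, chr7:45467070-45467119 on the minus strand, beginning 201 bases before the start: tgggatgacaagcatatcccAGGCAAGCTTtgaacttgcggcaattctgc
Bmf, chr2:118544771-118544820 on the minus strand, beginning 213 bases before the start: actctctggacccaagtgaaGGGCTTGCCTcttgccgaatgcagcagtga
Ccng1, chr11:40755442-40755491 on the minus strand, beginning 185 bases before the start: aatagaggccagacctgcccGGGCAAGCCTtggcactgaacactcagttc
Cdkn1a, chr17:29090886-29090957 on the plus strand, beginning 73 and 51 bases before the start: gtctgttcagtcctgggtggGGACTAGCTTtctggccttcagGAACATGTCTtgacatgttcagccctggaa
Mdm2, chr10:117710915-117710964 on the minus strand, beginning 186 bases before the start: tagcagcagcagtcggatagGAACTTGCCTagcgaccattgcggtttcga
Trp53, chr11:69580264-69580313 on the plus strand, beginning 75 bases before the start: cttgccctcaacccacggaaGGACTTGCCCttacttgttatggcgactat
These matches describe letters and do not show that p53 binds there.

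The arrays were alike in detection, with 45.5% to 49.0% of spots well above background, no saturated probe, and all 7 on 1 slide. They differed in brightness before normalisation. The 75th percentile of the scanner's processed signal ran from 44.4 in control replicate 2 to 82.4 in control replicate 3, with the Wnt4βKO arrays at 49.0 to 61.5. Wnt4 itself was at 71.0% of control (-0.49 ± 0.17, SE, unadjusted p = 0.0237, limma) with overlapping groups, which is the direction of the labels. The islet label was borne out by the high level of Ins2, an insulin gene (mean 15.8 in both groups), and by Gcg (glucagon) at 13.9 in control and 13.7 in Wnt4βKO islets. After quantile normalisation Ins2 took only the values 15.68 and 15.82, so its like means do not show equal expression. Ins1, the other insulin gene, was higher in every Wnt4βKO array (0.30 ± 0.11, unadjusted p = 0.0232, adjusted p = 0.651, limma). Of 9 β-cell markers 6 read higher and 3 lower in the Wnt4βKO group. Acinar enzymes were present too, and less so in the Wnt4βKO islets: 22 of 26 acinar markers read lower, 9 of them past an unadjusted p of 0.05, and their mean level was 13.39 to 13.53 in control arrays and 12.20, 13.21, 13.13 and 12.53 in Wnt4βKO replicates 1 to 4. Cpa1, a defining acinar enzyme, stood at 14.8 and 14.9. Of 14 immune markers 13 read higher in the Wnt4βKO group, none past that threshold, and their mean level was 7.31 to 7.50 in control arrays and 7.28, 7.68, 7.63 and 8.47 in Wnt4βKO replicates 1 to 4. RNA was taken from whole islets, so fewer cells of a type and less RNA per cell cannot be told apart. Each array carried 1 islet sample, and p-values measure the spread between these 7 samples.

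Of the 38 genes, 35 had a probe that rose well above background in 3 arrays or more and were tested. Bax, the pore-forming effector, and Sesn2, a stress-induced brake on growth signalling, were higher in every Wnt4βKO array than in every control array. No other of the 35 passed an unadjusted p of 0.05 in either direction, and none passed after adjustment (limma, Benjamini-Hochberg over all tested probes, lowest adjusted p = 0.519). Over all 13648 tested genes, the unadjusted threshold was passed upward by 4.38% and downward by 4.61%, and 0.022% passed after adjustment. The Wnt4βKO group lay wholly above the control group for 4.09% of genes and wholly below it for 4.29%. A count of 2 upward and 0 downward among 35 genes is close to these shares. The changes were spread to both sides of 0, with 19 genes higher and 16 lower and a median of 0.02, beside 7033 higher, 6615 lower and a median of 0.01 over all tested genes. Across the other settings the median of the 35 genes ran from -0.03 to 0.05, and 16 of them changed sign in at least 1 setting.

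**Figure D1:**
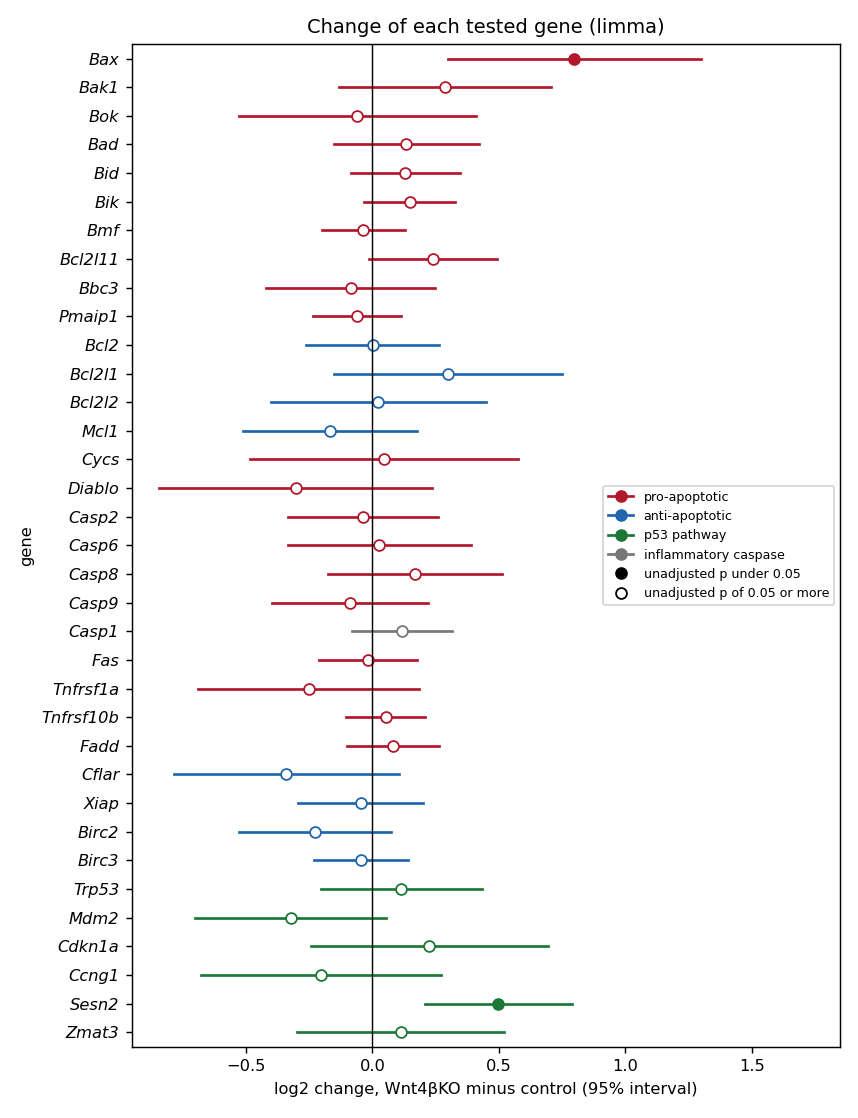
Log2 change (Wnt4βKO minus control, horizontal axis) of the 35 tested genes, ordered by role, with 95% intervals from limma and colours for pro-apoptotic, anti-apoptotic, p53 pathway and inflammatory genes. The intervals of Bax (0.30 to 1.30) and Sesn2 (0.21 to 0.79) lie above 0, and those of the other 33 genes include 0.

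The effectors BAX, BAK and BOK form the pores of the outer mitochondrial membrane. Arrays are given in the order control replicates 2, 3, 4, then Wnt4βKO replicates 1 to 4. The brighter Bax probe read 7.38, 7.75 and 6.89 in control and 8.27, 7.81, 8.13 and 8.34 in Wnt4βKO arrays. The lowest Wnt4βKO array lay just above the highest control array. The change was 0.80 ± 0.21 (SE, 95% interval 0.30 to 1.30, 1.74-fold), with an unadjusted p of 0.00671 and an adjusted p of 0.547 by limma with Benjamini-Hochberg adjustment. A dimmer Bax probe read 7.01, 7.67 and 7.06 in control and 6.85, 7.59, 7.45 and 7.10 in Wnt4βKO arrays, with overlapping groups and a change of 0.00 ± 0.23 (unadjusted p = 0.996, limma). With both probes averaged, the Bax change was 0.40 (unadjusted p = 0.0439, limma). The Bax difference thus stood on 1 of its 2 probes.

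Bak1 read 6.89, 6.82 and 7.36 in control and 7.62, 7.37, 7.01 and 7.24 in Wnt4βKO arrays, a change of 0.29 ± 0.18 with overlapping groups (unadjusted p = 0.152, limma). Bok differed by -0.06 ± 0.20. The median over the 3 effectors was 0.29, and 0.05 with the acinar covariate. It was 0.18 without Wnt4βKO replicate 1, and leaving out control replicate 3 gave 0.19 and control replicate 4 gave 0.45.

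With the mean acinar level as a covariate, the Bax change was 0.54 (unadjusted p = 0.122) and the Sesn2 change 0.21 (unadjusted p = 0.109) by limma, both short of the threshold. Wnt4βKO replicates 1 and 4, which had the lowest acinar levels, had the highest values of both genes. The acinar level and the genotype do not overlap between groups, and their parts in these differences cannot be told apart.

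**Figure D2:**
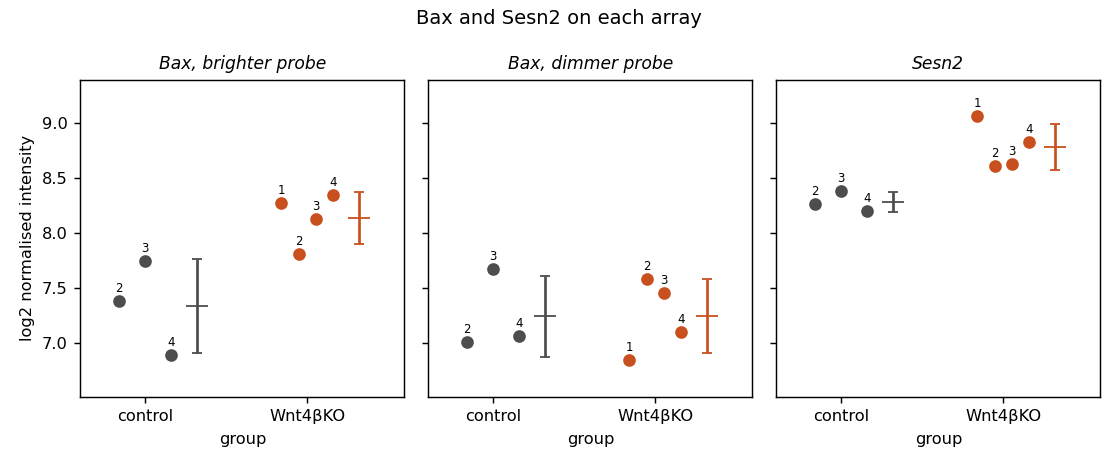
Log2 normalised intensity (vertical axis) of the 2 Bax probes and of Sesn2 in each array, numbered by replicate, with the mean and SD of each group beside the points. For the brighter Bax probe and for Sesn2 the 4 Wnt4βKO points lie above the 3 control points. For the dimmer Bax probe the groups overlap between 7.01 and 7.59.

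The BH3-only genes encode the sensors of the mitochondrial route. Of 8, 7 were tested, 4 read higher and 3 lower, and the median change was 0.13. The median was 0.02 without control replicate 3, 0.08 without Wnt4βKO replicate 4 and 0.07 with the acinar covariate. Bcl2l11, which encodes BIM, read 7.90, 8.03 and 8.08 in control and 8.37, 8.32, 7.99 and 8.28 in Wnt4βKO arrays. Wnt4βKO replicate 3 lay among the controls and replicates 1, 2 and 4 above them, for a change of 0.24 ± 0.11 (unadjusted p = 0.0595, limma). A dimmer Bcl2l11 probe differed by 0.02.

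Bik, an endoplasmic reticulum sensor, read 6.22, 6.37 and 6.21 in control and 6.52, 6.41, 6.35 and 6.39 in Wnt4βKO arrays (0.15 ± 0.08, unadjusted p = 0.0950, limma). Bad, which growth factor signalling silences by phosphorylation, ranged from 9.27 to 9.82 and differed by 0.13 ± 0.12. Bid, which links death receptors to mitochondria, differed by 0.13 ± 0.09. The p53 targets Bbc3 (PUMA) and Pmaip1 (NOXA) differed by -0.09 ± 0.14 and -0.06 ± 0.07, and Bmf by -0.04 ± 0.07. The Pmaip1 probe was well above background on only 3 arrays and lay at 5.79 to 5.99, close to the level of undetected probes. Hrk did not rise well above background in these arrays.

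The BCL2 guard proteins bind the effectors and the BH3-only proteins and keep the mitochondrion closed. Bcl2l1, which encodes BCL-XL, read 9.16, 9.73 and 9.48 in control and 10.11, 9.83, 9.66 and 9.41 in Wnt4βKO arrays, with a change of 0.30 ± 0.19 (unadjusted p = 0.164, limma). The groups overlapped, and 3 dimmer tested probes of Bcl2l1 differed by -0.07, -0.03 and -0.08. Mcl1, the short-lived guard, read 9.38, 9.55 and 9.85 in control and 9.22, 9.43, 9.35 and 9.69 in Wnt4βKO arrays (-0.17 ± 0.15). Bcl2 differed by 0.00 ± 0.11, its dimmer probe by -0.15 ± 0.12, and Bcl2l2 by 0.02 ± 0.18. The median of the 4 guards was 0.01, beside 0.13 for the 10 tested effectors and BH3-only genes.

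Downstream of the mitochondrion, Cycs (cytochrome c) ranged from 9.25 to 10.07 with overlapping groups and a change of 0.05 ± 0.23, and its dimmer probe differed by -0.36 ± 0.25. Diablo, whose protein displaces the inhibitors of apoptosis from caspases, read 6.45, 6.96 and 6.11 in control and 6.26, 6.59, 6.01 and 5.95 in Wnt4βKO arrays (-0.30 ± 0.23). Apaf1, the scaffold of the apoptosome, did not rise well above background with this probe. Of the initiator caspases, Casp9 differed by -0.09 ± 0.13, Casp8 by 0.17 ± 0.15 and Casp2 by -0.04 ± 0.13. The executioner Casp6 differed by 0.03 ± 0.15. The 4 caspases had a median of 0.00, with 2 higher and 2 lower.

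Of the inflammatory caspases, Casp1, which activates interleukin precursors, read 5.92, 6.03 and 5.89 in control and 6.01, 6.03, 5.99 and 6.22 in Wnt4βKO arrays (0.12 ± 0.08). Its probe lay near the level of undetected probes and was well above background on 2 control and 4 Wnt4βKO arrays. With the processed signal the Casp1 change was 0.71. The array that read 6.22, Wnt4βKO replicate 4, also had the highest immune marker level, 8.47. The part of immune cells in the Casp1 values was not tested. Casp12 did not rise well above background.

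The death receptor genes did not separate the groups. Tnfrsf1a, a receptor for tumour necrosis factor, read 7.21, 7.25 and 6.79 in control and 6.73, 6.67, 6.65 and 7.28 in Wnt4βKO arrays. Wnt4βKO replicates 1, 2 and 3 lay below all controls and replicate 4 above them, for a change of -0.25 ± 0.19 (unadjusted p = 0.217, limma). Without replicate 4 the change was -0.40 (unadjusted p = 0.0235, limma). Fas, the receptor of Fas ligand, was well above background on 3 of 7 arrays and Tnfrsf10b, a receptor of TRAIL, on 5, with changes of -0.02 ± 0.08 and 0.05 ± 0.07. Their adaptor Fadd differed by 0.08 ± 0.08.

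The 4 inhibitors of the death receptor and caspase steps all read lower in Wnt4βKO islets, with a median of -0.14, and none passed the unadjusted threshold. Cflar, which encodes the FLIP decoy of the initiator caspase, read 8.19, 7.50 and 8.27 in control and 7.68, 7.77, 7.67 and 7.46 in Wnt4βKO arrays. Control replicate 3 lay among the Wnt4βKO arrays and the other controls above all of them, for a change of -0.34 ± 0.19 (unadjusted p = 0.113, limma). Without control replicate 3 the Cflar change was -0.58 (unadjusted p = 0.00134, adjusted p = 0.600, limma). The 2 dimmer tested Cflar probes differed by -0.22 and -0.18.

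Birc2, a ubiquitin ligase of the receptor complex, read 6.59, 6.64 and 6.54 in control and 6.40, 6.67, 6.26 and 6.13 in Wnt4βKO arrays (-0.23 ± 0.13, unadjusted p = 0.117, limma). Without Wnt4βKO replicate 2 the Birc2 change was -0.33 (unadjusted p = 0.0120, adjusted p = 0.443, limma). Its relative Birc3 differed by -0.05 ± 0.08 and Xiap, which inhibits caspases directly, by -0.05 ± 0.11. With the acinar covariate 3 of the 4 inhibitors read lower, with a median of -0.11, as did 3 of 4 without control replicate 3 or without Wnt4βKO replicate 4.

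Among the 6 p53 pathway genes 4 read higher and 2 lower, with a median of 0.11, or of -0.01 with the acinar covariate. Leaving out Wnt4βKO replicate 1 gave a median of 0.01, replicate 4 of that group 0.20 and control replicate 2 a median of 0.06. Sesn2, which restrains the growth kinase complex mTORC1 and answers to p53 and to amino acid stress, read 8.27, 8.39 and 8.20 in control and 9.06, 8.61, 8.63 and 8.83 in Wnt4βKO arrays. The change was 0.50 ± 0.12 (SE, 95% interval 0.21 to 0.79, 1.41-fold), with an unadjusted p of 0.00466 and an adjusted p of 0.519 (limma, Benjamini-Hochberg). With arrays scaled to a common median in place of quantile normalisation, the Sesn2 change was 0.48 (unadjusted p = 0.106, limma).

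Mdm2, the ubiquitin ligase that degrades p53, read 9.68, 9.42 and 9.60 in control and 8.95, 9.05, 9.52 and 9.46 in Wnt4βKO arrays, a change of -0.32 ± 0.16 (unadjusted p = 0.0836, limma). Wnt4βKO replicates 1 and 2 lay below all controls and replicates 3 and 4 among them. These 2 lower arrays shared the first row of the slide with control replicate 4 alone: within that row the Mdm2 difference was -0.60, and within the second row it was -0.06. A dimmer Mdm2 probe differed by -0.07.

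Cdkn1a, which encodes the cell cycle inhibitor p21, read 7.21, 7.52 and 7.76 in control and 7.86, 7.32, 8.06 and 7.64 in Wnt4βKO arrays (0.23 ± 0.20, unadjusted p = 0.295, limma). Trp53 itself ranged from 6.03 to 6.58 and differed by 0.11 ± 0.14. Ccng1, a cyclin that p53 induces, ranged over 6.91 to 7.85 in control and 7.03 to 7.26 in Wnt4βKO arrays (-0.20 ± 0.20). Zmat3, an RNA-binding p53 target, differed by 0.11 ± 0.17.

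**Figure D3:**
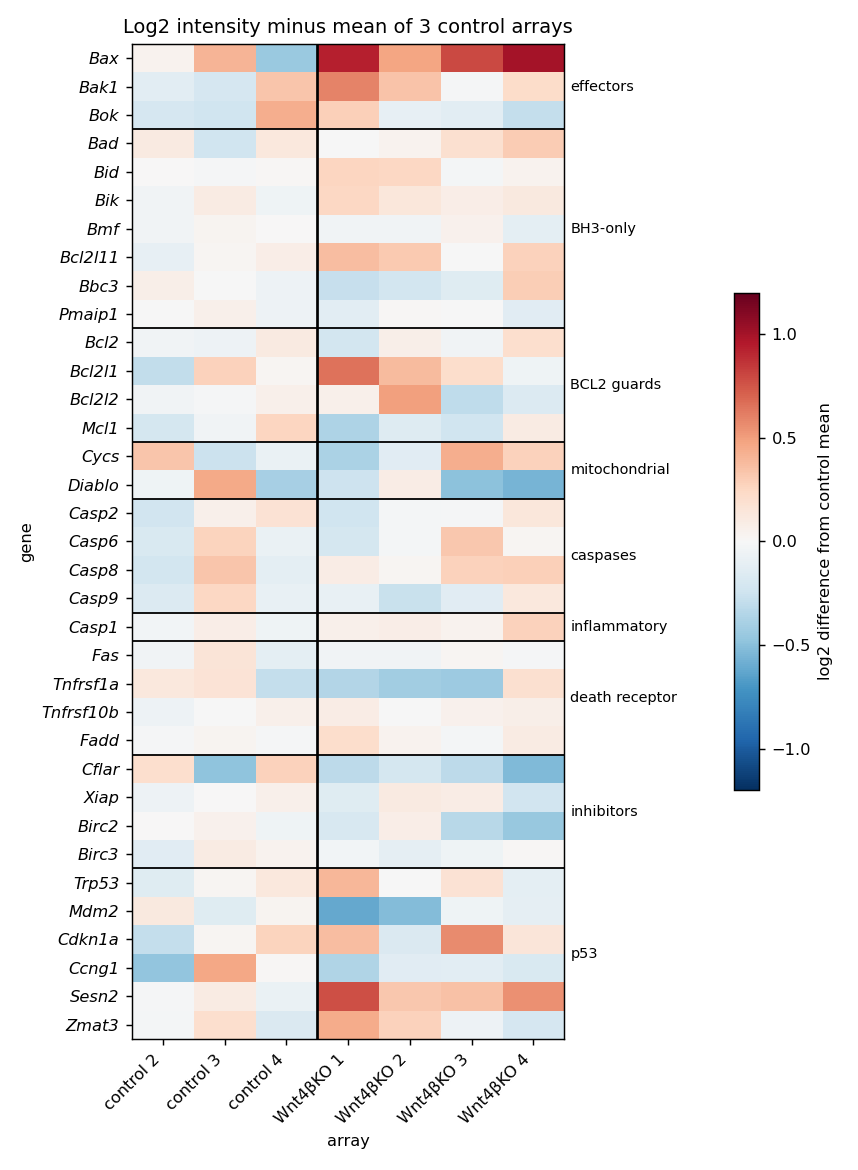
Log2 intensity of each tested gene in each array minus the mean of the 3 control arrays, with genes in rows by role and arrays in columns (red above and blue below the control mean). Bax and Sesn2 are red in all 4 Wnt4βKO arrays, while most other rows hold both colours within the Wnt4βKO group.

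Pro-apoptotic and anti-apoptotic genes were set side by side. Of 20 tested pro-apoptotic genes, 11 read higher and 9 lower, with a median of 0.04, or of -0.03 without Wnt4βKO replicate 3. Of 8 anti-apoptotic genes, 3 read higher and 5 lower, with a median of -0.05. With arrays scaled to a common median, 1 read higher and 7 lower, and with the acinar covariate 4 and 4, with a median of -0.01. Leaving out Wnt4βKO replicate 2 gave an anti-apoptotic median of -0.12 and replicate 1 of that group -0.03. Leaving out control replicate 2 gave -0.10 and control replicate 4 gave -0.02. For each array, the mean deviation from the control mean over the anti-apoptotic genes was subtracted from that over the pro-apoptotic genes. This balance was 0.03, 0.09 and -0.12 in control and 0.12, -0.06, 0.16 and 0.26 in Wnt4βKO arrays. Wnt4βKO replicate 2 lay among the controls and replicates 1, 3 and 4 above them, so the groups overlapped. The difference of the means was 0.12, beside an SD of 0.11 over the control and 0.13 over the Wnt4βKO arrays. It was 0.06 without control replicate 4, 0.08 without Wnt4βKO replicate 4, 0.03 with the acinar covariate and 0.22 with the processed signal. A p-value was not computed for this balance.

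**Figure D4:**
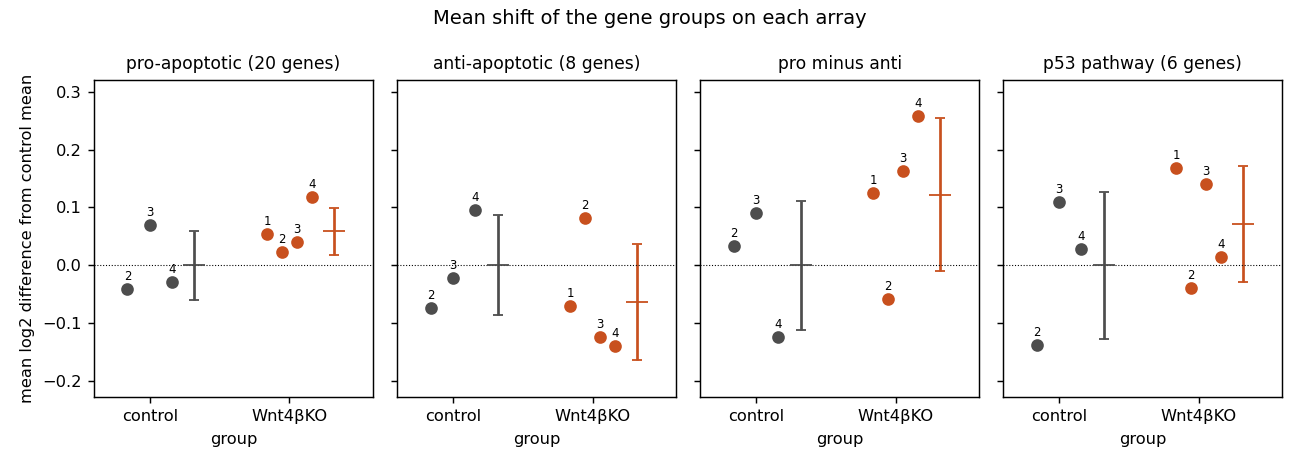
Mean log2 difference from the control mean (vertical axis) over the pro-apoptotic, anti-apoptotic and p53 pathway genes of each array, and the pro-apoptotic minus the anti-apoptotic mean, with group mean and SD beside the numbered points. In all 4 panels at least 1 Wnt4βKO array falls within the range of the controls.

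A further 65 genes of these pathways had a probe, and 56 were tested. Of 29 other apoptosis genes, 2 rose past the unadjusted threshold and none fell, with a median change of 0.01, near the 4.38% upward and 4.61% downward of all tested genes. Of 27 other p53 genes, 4 rose and 3 fell past it, with a median of -0.04, and these counts are more than those shares give. Both lists were chosen with earlier results of these data known, so no conclusion about p53 genes can be drawn from these counts. No test of either list was made, and with median scaling the p53 counts were 1 and 0. None of the 56 passed after adjustment.

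Phlda3, a p53 target that blocks the survival kinase AKT, had the lowest p-value of them. It read 6.61, 6.65 and 6.78 in control and 7.11, 7.22, 7.34 and 7.37 in Wnt4βKO arrays, with a gap between the groups and a change of 0.58 ± 0.09 (SE, 1.49-fold, unadjusted p = 2.63e-04, adjusted p = 0.345, limma). Bcl2l14, a BCL2 relative called BCL-G, read 6.17, 6.29 and 6.04 in control and 6.57, 6.56, 6.49 and 6.65 in Wnt4βKO arrays (0.40 ± 0.08, unadjusted p = 0.00176, adjusted p = 0.480, limma). Phlda3 and Bcl2l14 were the 2 of the 9 genes that kept an unadjusted p below 0.05 in all 20 other settings, the acinar covariate included (0.64 for Phlda3 and 0.35 for Bcl2l14).

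Aen, a nuclease that p53 induces, read 9.06, 9.07 and 9.32 in control and 10.003, 9.42, 9.46 and 9.77 in Wnt4βKO arrays (0.51 ± 0.16, unadjusted p = 0.0134, limma). As for Bax and Sesn2, Wnt4βKO replicates 1 and 4 were the highest, and with the acinar covariate the Aen change was 0.13 (unadjusted p = 0.359, limma). The 2 other tested Aen probes differed by 0.25 and 0.23, and the mean over probes by 0.33 (unadjusted p = 0.0716, limma). Its promoter window held 1 decamer, beginning 121 bases before the start.
Aen, chr7:78895917-78895966 on the plus strand: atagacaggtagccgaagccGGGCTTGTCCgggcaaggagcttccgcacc
Of 25 other p53 genes with a promoter sequence, 6 held the decamer.

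Siva1, a death receptor-associated p53 target, read 8.31, 8.24 and 8.30 in control and 8.38, 8.71, 8.65 and 8.92 in Wnt4βKO arrays (0.38 ± 0.13, unadjusted p = 0.0180, limma). A dimmer Siva1 probe differed by 0.22, and the mean over both by 0.30 (unadjusted p = 0.115, limma). Gadd45a, a DNA damage and stress gene, read 5.86, 6.07 and 6.15 in control and 6.35, 6.20, 6.31 and 6.22 in Wnt4βKO arrays (0.24 ± 0.09, unadjusted p = 0.0288, limma). Its probe lay near the level of undetected probes and was well above background on 2 control and 4 Wnt4βKO arrays. Across the other settings the Gadd45a change ran from 0.16 to 1.57. Trp53i11 read 7.89, 8.17 and 8.37 in control and 8.75, 8.41, 8.92 and 8.28 in Wnt4βKO arrays, and Wnt4βKO replicate 4 fell below the highest control (0.44 ± 0.18, unadjusted p = 0.0445, limma), while its dimmer probe differed by 0.12.

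Lower in Wnt4βKO islets were Trp53inp1 and Trp53inp2, nuclear proteins with roles in autophagy, and Sesn1, the relative of Sesn2. Trp53inp1 read 7.01, 7.47 and 7.61 in control and 7.26, 6.67, 6.90 and 6.81 in Wnt4βKO arrays (-0.46 ± 0.18, unadjusted p = 0.0409, limma). Its dimmer probe differed by -0.05, and the mean over both by -0.25 (unadjusted p = 0.0698, limma). Trp53inp2 read 11.32, 11.50 and 11.78 in control and 11.42, 11.02, 11.12 and 11.12 in Wnt4βKO arrays (-0.36 ± 0.14, unadjusted p = 0.0320, limma). Replicate 1 of the Wnt4βKO group lay among the controls for both genes. Sesn1 read 9.20, 9.45 and 9.37 in control and between 8.86 and 9.19 in Wnt4βKO arrays, all below the controls (-0.26 ± 0.11, unadjusted p = 0.0423, limma), opposite in direction to Sesn2. Of the 20 other settings, Aen and Siva1 passed the unadjusted threshold in 17 each, Trp53inp1 in 12, Trp53inp2 in 10, Trp53i11 in 9, Sesn1 in 8 and Gadd45a in 12 of 19.

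**Figure D5:**
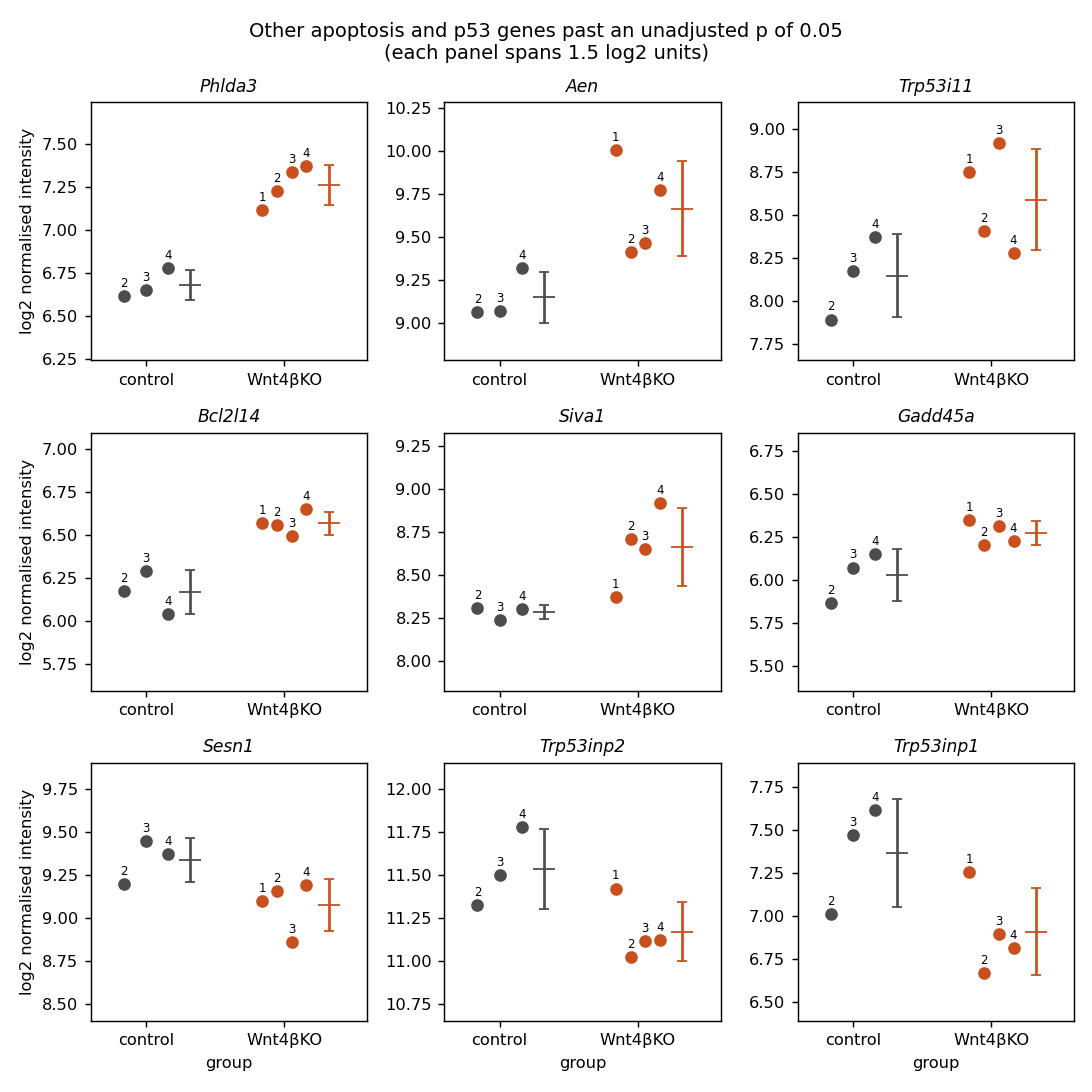
Log2 normalised intensity (vertical axis, 1.5 log2 units in each panel) of the 9 further pathway genes past an unadjusted p of 0.05, in each numbered array, with group mean and SD. The groups of Phlda3, Bcl2l14, Aen, Siva1, Gadd45a and Sesn1 do not overlap, while 1 Wnt4βKO array falls within the range of the controls for Trp53i11, Trp53inp1 and Trp53inp2.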

How the data were processed

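RNA of 7 mouse islet samples was measured on 1-colour Agilent arrays. The authors deposited 1 scanner output per array with spot intensity values on a linear scale, not normalised, made with Agilent Feature Extraction (12.0.1.1 per the file headers, 9.1 in the submitters' processing notes). A deposited table of log2 values was not used, because its columns could not be matched to the arrays. One control sample of the study did not pass the authors' quality check and was not analysed here. Control spots were left out. Median spot intensities were background-corrected with the median background of each spot (normexp, offset 50), taken to log2 and quantile-normalised. Of 56605 probes, 26151 were well above background on at least 3 arrays and were tested with limma 3.58.1 in R 4.3.3 (lmFit and eBayes, 1 group term, two-sided), with Benjamini-Hochberg adjustment over these probes. A missing value (65 in tested probes) was left out of the fit. Probe accessions were matched to RefSeq symbols, naming 32994 probes (58.3%), and the brightest probe stood for a gene. The members and lists were chosen with earlier results of these data known. Named genes were all 38 members, and of the other listed pathway genes those past an unadjusted p of 0.05. Levels of different probes are not comparable. The number of arrays (3 and 4) limits the precision. On simulated data (26102 probes) limma after adjustment called 30% of changes of 0.5 and 82% of changes of 1 (log2). The simulated probes varied independently of each other, without variation shared between genes, so these shares may not hold for the real arrays. Alternatives covered background, normalisation, filter, variance model, array weights, replicate block, slide row, acinar covariate, probe choice and each array left out. The labels tie no replicate number to a shared litter or day, so replicates were not paired. Deviations of same-numbered samples had correlations of -0.13, 0.23 and -0.01, too few to decide whether they shared a litter or day.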

Additional observations from a re-analysis of the deposited data

Results flagged for a closer look

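In 2 of 38 sets of Wnt4βKO values tested (35 genes and 3 group shifts), 1 array stood apart from the other three by Dixon's ratio (gap over range, above the 95% critical value for 4 samples), where chance gives about 1 in 20, or about as many as were found. For Casp1 the ratio was 0.830, with Wnt4βKO replicate 4 at 6.22 and the others at 5.99 to 6.03. For Tnfrsf1a it was 0.869, with replicate 4 at 7.28 and the others at 6.65 to 6.73. Without that array the Tnfrsf1a change was -0.40 (unadjusted p = 0.0235, adjusted p = 0.864, limma). Replicate 4 also had the highest immune marker level of the 7 arrays (8.47), and the part of that level in either value was not tested.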

How the results depend on the processing

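Over 20 other settings, 13 of processing and 7 that left out 1 array, no gene passed after adjustment. Bax and Sesn2 read higher in all of them, while 16 of the 35 genes changed sign in at least 1. The count of 2 genes past the unadjusted threshold was 1 with median scaling (Bax), 4 with no filter on dim probes (Bax, Sesn2, Bik and Bcl2l11) and 0 with the acinar covariate, and ran from 2 to 4 with an array left out. Bax and Sesn2 passed in all 7 of those fits (0.57 to 1.001 and 0.41 to 0.56), and a further 9 genes passed in 1 of them each: Ccng1 without control replicate 2, Casp8 and Cflar without control replicate 3, Bak1 without control replicate 4, Birc2 without Wnt4βKO replicate 2, Bcl2l11 and Mdm2 without Wnt4βKO replicate 3, and Bbc3 and Tnfrsf1a without Wnt4βKO replicate 4. Bax differed by 1.26 with processed signals brought to a common 75th percentile, and by 1.15 and 0.67 within the 2 slide rows, where Sesn2 differed by 0.63 and 0.41. The processed signal gave medians of 0.10 for pro-apoptotic and -0.21 for anti-apoptotic genes, and the BCL2 family alone gave 0.13 for pro-apoptotic genes. With an array left out the pro-apoptotic median ran from -0.034 (without Wnt4βKO replicate 3) to 0.062. The cause was not tested. With a replicate block the count was 2, with Bax at 0.75 and Sesn2 at 0.41, the medians were 0.04 and -0.03 and the balance 0.12. Replicate 1 had a Wnt4βKO array alone, so the block set that array aside. Its changes equal those without Wnt4βKO replicate 1, and these 2 settings are not separate checks of them. Over all settings that balance ran from 0.03 (acinar covariate) to 0.22 (processed signal), and from 0.06 to 0.18 with an array left out. The deposited value table was not run. For Hrk, Apaf1 and Casp12, not well above background, no change could be measured.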
